A study of Rattus norvegicus with 8 samples.

Results

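Interferon response genes are the genes that cells switch on after interferons, the signalling proteins of antiviral and immune defence, bind their receptors. The set described here is a list of 35 rat gene symbols, of which 22 are read as type I members and 13 as gamma-type members from textbook knowledge. By exact symbol, 32 of the 35 were found among the 52753 loci of the deposited gene table, 19 of them type I and 13 gamma-type, and each had 1 locus. Oas1b, Oas2 and Irf9 were not found by exact symbol. A filter on low counts kept 31 of the 32 for testing. The gene left out was Tap2, with 6 fragments over all 8 libraries, and it is given by its counts only.

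The libraries hold stranded mRNA from the whole small intestine of Sprague Dawley rats at postnatal day 21. In 4 of them the rats had cystic fibrosis (CF), the disease caused by loss of the epithelial anion channel Cftr, and in the other 4 they were wild type (WT). The tissue was flushed with a mucus-loosening buffer and homogenised whole, so each library mixes epithelium, immune cells, vessels and muscle. The labels name no treatment in either group, and they do not give the CF allele, the sex or the litter. They also do not say that the libraries came from separate animals, so p-values measure the spread between these libraries, which may be technical.

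Type I interferons signal through the receptor Ifnar and a complex that includes Stat2 and Irf9, which binds the interferon-stimulated response element (ISRE). Interferon gamma signals through its own receptor, acts at the gamma-activated site (GAS) and raises Irf1 as a second step. Type I targets mainly restrict viral replication, while gamma targets largely serve antigen processing, chemokine signalling and defence against pathogens inside cells. In the gut both programmes are known to operate in the epithelium as well as in immune cells, and many genes answer to both interferons.

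The table names the libraries by group and by a number from 0 to 3, and values below are always given in that order. Each CF library held between 18621671 and 20890031 fragments, and each WT library between 15255364 and 20812425. Levels of a gene across libraries are in CPM, the fragment count scaled to library size with TMM factors, and levels between genes are compared only in FPKM, which divides by transcript length. Cftr transcript lay between 92.0 and 106.6 CPM in CF and between 74.0 and 106.7 CPM in WT, and without the allele that level does not check the labels. All 17 enterocyte markers found were detected, while the stomach gene Atp4b and the hindgut gene Hoxd13 were at 0. CF library 0 stood apart: its summed enterocyte markers were at 12627 CPM, against 20296 to 36681 CPM in the other 7 libraries. Where leaving this library out changed a member's log2 ratio most, the value without it is given too.

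Promoters of the members were searched for both elements, since these are the known DNA targets of the type I and gamma pathways. RefSeq (build GRCr8) gave the 250 bases before the annotated start for 27 of the 35 members. The ISRE core was searched as GAAA, any 2 bases and GAAA, or as its reverse complement TTTC, any 2 bases and TTTC. The GAS core was searched as TTC, any 3 bases and GAA, which is its own reverse complement, and overlapping matches were counted. An ISRE core was found in 10 of 14 type I promoters (71.4%) and in 7 of 13 gamma-type promoters (53.8%), against 3.41% of all 33469 promoters of the table. A GAS core was found in 5 of the 14 type I promoters (35.7%) and 4 of the 13 gamma-type promoters (30.8%), against 7.67% of all promoters. Neither core was found for Mx1, Oasl, Stat2, Cxcl9, Psmb9 and Psme1. A match is a description of these letters and not a bound site, and no match says only that the letters are not in this window.

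**Figure D1:**
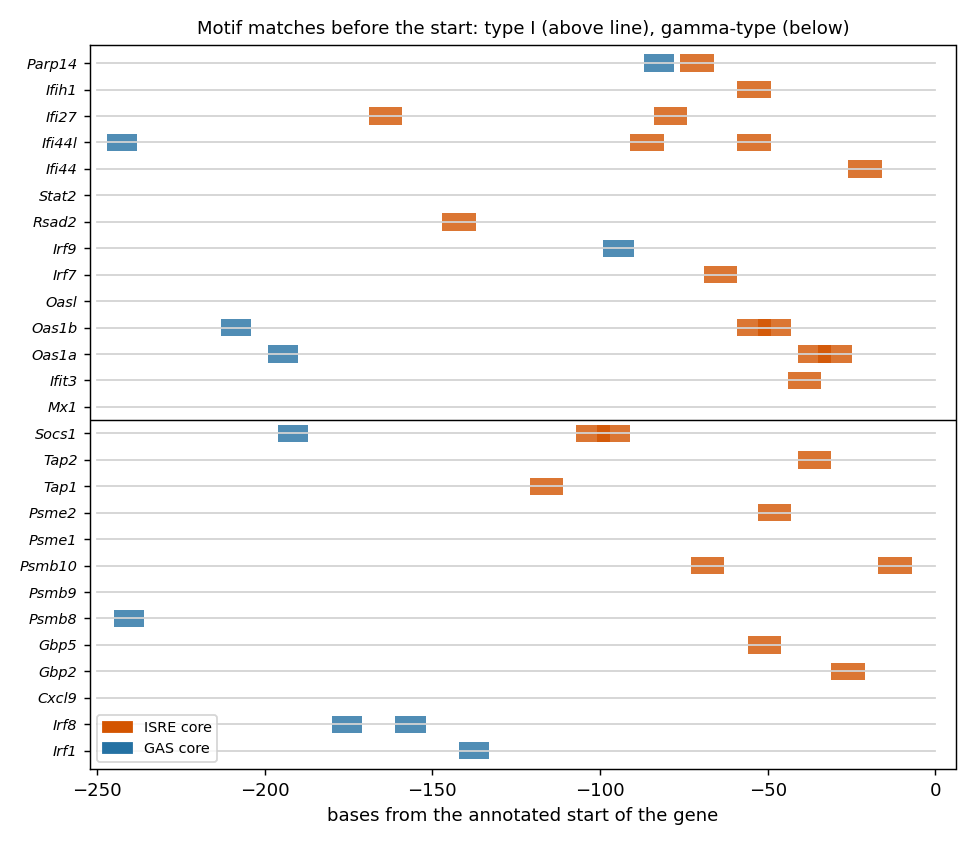
Position of ISRE core (orange) and GAS core (blue) matches in bases from the annotated start, for the 27 members with a RefSeq promoter. Each line is 1 gene and each box spans the motif's own length, 10 bases for the ISRE core and 9 for the GAS core. Of the 17 promoters with an ISRE core, 10 are type I. The GAS cores of the gamma-type Irf1, Irf8 and Psmb8 and of the type I Irf9 stand without an ISRE core.

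The sequences of 7 promoters are shown because these members carry the contrasts described below: the type I genes Irf7, Ifi44 and Ifi44l, the gamma-type transcription factors Irf1 and Irf8, and the gamma-type genes Tap1 and Socs1. Each is the 250 bases before the start, on the strand of the gene, in GRCr8, with the matched cores in capitals.
Irf7 (chr1:205800024-205800273, minus strand): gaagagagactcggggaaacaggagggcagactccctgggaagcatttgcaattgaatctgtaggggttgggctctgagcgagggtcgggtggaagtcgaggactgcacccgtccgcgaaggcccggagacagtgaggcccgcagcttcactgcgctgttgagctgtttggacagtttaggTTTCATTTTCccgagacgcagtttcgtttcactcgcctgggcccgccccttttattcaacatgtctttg
Ifi44 (chr2:243303841-243304090, minus strand): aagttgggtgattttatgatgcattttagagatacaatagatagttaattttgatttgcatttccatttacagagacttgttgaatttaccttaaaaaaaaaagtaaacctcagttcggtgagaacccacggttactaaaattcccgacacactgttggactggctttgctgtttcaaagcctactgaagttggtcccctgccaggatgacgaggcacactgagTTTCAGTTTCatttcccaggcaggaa
Ifi44l (chr2:243328473-243328722, plus strand): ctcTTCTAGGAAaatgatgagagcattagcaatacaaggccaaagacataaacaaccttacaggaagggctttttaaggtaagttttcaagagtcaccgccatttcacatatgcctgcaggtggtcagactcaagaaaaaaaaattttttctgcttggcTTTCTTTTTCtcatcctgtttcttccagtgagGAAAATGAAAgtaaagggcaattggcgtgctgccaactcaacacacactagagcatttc
Irf1 (chr10:38417685-38417934, plus strand): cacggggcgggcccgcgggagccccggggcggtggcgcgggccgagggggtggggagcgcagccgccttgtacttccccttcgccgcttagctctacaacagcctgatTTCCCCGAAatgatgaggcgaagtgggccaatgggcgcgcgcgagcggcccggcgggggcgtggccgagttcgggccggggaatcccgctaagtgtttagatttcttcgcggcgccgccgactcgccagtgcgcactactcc
Irf8 (chr19:65699034-65699283, plus strand): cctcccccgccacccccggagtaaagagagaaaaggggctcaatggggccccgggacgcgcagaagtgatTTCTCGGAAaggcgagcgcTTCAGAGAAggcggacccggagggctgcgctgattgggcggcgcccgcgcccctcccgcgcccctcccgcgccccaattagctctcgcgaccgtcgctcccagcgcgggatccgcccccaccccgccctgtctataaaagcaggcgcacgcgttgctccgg
Tap1 (chr20:4668544-4668793, minus strand): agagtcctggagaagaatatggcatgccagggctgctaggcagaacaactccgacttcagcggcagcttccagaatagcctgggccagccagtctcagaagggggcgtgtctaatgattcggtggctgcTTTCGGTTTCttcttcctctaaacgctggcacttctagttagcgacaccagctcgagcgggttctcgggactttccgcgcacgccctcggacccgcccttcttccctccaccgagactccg
Socs1 (chr10:5389324-5389573, plus strand): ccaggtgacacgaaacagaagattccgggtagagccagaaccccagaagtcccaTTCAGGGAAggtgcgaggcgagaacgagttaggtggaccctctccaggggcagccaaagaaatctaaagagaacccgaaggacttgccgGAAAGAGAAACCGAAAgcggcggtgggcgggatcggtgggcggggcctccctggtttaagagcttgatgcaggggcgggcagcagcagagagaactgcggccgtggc
The ISRE core of Irf7 begins 69 bases before the start, that of Ifi44 26 bases before it, and Ifi44l has ISRE cores at 91 and 59 bases and a GAS core at 247 bases. Irf1 has a single GAS core at 142 bases, and Irf8 has GAS cores at 180 and 161 bases. Tap1 has an ISRE core at 121 bases. Its start lies 457 bases from that of Psmb9, which is read from the opposite strand, so both genes share the stretch between them. Socs1 has 2 ISRE cores at 107 and 101 bases, which overlap in one run of capitals, and a GAS core at 196 bases.

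The comparison of CF with WT asked whether interferon response genes differ in the CF small intestine. None of the 31 tested members passed a Benjamini-Hochberg adjusted p of 0.05 in edgeR's quasi-likelihood fit over all 16941 tested loci. Of those loci 28 (0.165%) passed, 23 higher in CF (0.136%) and 5 lower (0.0295%). At an unadjusted p under 0.05 there were 3 members, against 15.1% of all tested loci. Socs1 and Cxcl9 were higher in CF (7.94% of loci) and Ifi44 was lower (7.21% of loci). DESeq2 called 1 member, Socs1 (adjusted p = 0.0439), and 3.67% of all loci, while limma called no member, with 0.118% of all loci called on log2(FPKM + 1) and 0.124% on log2(FPKM + 0.1). Members at an unadjusted p under 0.05 by limma numbered 0 on the first of these scales and 1 on the second. The share of all loci at that cut was not computed for limma, so these counts have no background. CF and WT values did not overlap for 1 of the 31 members, Ifi44, against 8.78% of all tested loci. It lay below WT, as did 3.91% of loci, and no member lay wholly above WT, as did 4.86% of loci.

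Mean levels were higher in CF for 15 members and lower for 16, and the median log2 fold change of CF over WT, called the log2 ratio from here on, was −0.0071, beside −0.0049 over all tested loci. For 23 of the 31 the 95% interval of the log2 ratio lay between −1 and 1, which is a change of less than 2-fold either way. The 8 whose interval reached a 2-fold change were Ifit1, Ifit3, Oas1a, Oasl, Irf7, Rsad2, Cxcl9 and Socs1, so for these a 2-fold difference could not be told from none or, for Cxcl9 and Socs1, from a smaller one. In a tissue homogenate, fewer cells of a type and less RNA per cell cannot be told apart, and this holds for every level given here.

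**Figure D2:**
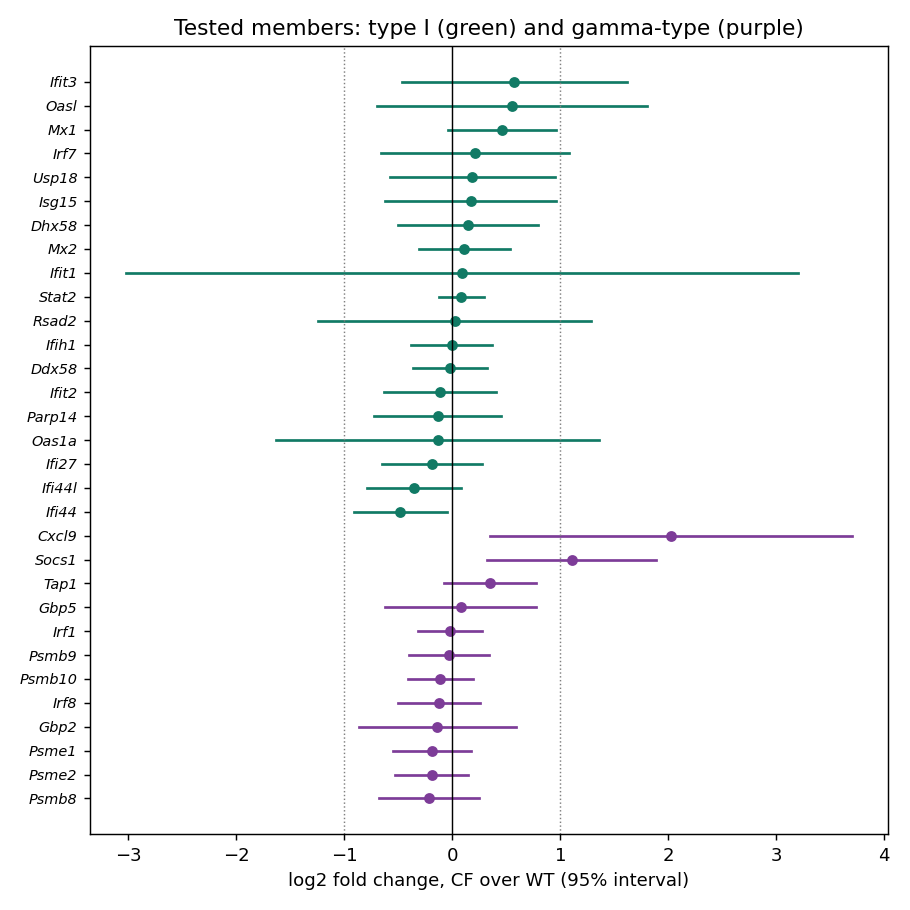
Log2 ratio of CF over WT (points) with its 95% interval (lines) for the 31 tested members, type I in green and gamma-type in purple, from edgeR's fit of 4 CF and 4 WT libraries. Dotted lines mark a 2-fold change. Intervals of Cxcl9 and Socs1 lie above 0 and that of Ifi44 below 0, all before adjustment over the tested loci, and that of Ifit1 is the widest.

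The classes had different median levels, and both had a median log2 ratio near 0. Type I members had a median of 6.44 FPKM, from 0.943 (Ifit3) to 41.9 (Ifi27), and gamma-type members a median of 50.1 FPKM, from 3.05 (Gbp5) to 186 (Psme1). Of the 19 type I members, 11 had a higher mean in CF and 8 a lower one, with a median log2 ratio of 0.08 and a range from −0.48 (Ifi44) to 0.57 (Ifit3). Of the 12 tested gamma-type members, 4 had a higher mean in CF and 8 a lower one, with a median of −0.07 and a range from −0.22 (Psmb8) to 2.02 (Cxcl9). The sign of both medians depended on single libraries. Without CF library 1 the type I median was −0.12, without WT library 1 it was −0.00066 and without WT library 2 it was −0.011. The gamma-type median was 0.069 without CF library 3 and 0.0057 without WT library 3.

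The RNA sensors RIG-I and MDA5 and their regulator LGP2 had log2 ratios near 0, with intervals inside a 2-fold change. Ddx58, which encodes the RNA sensor RIG-I, was at 14.3, 22.8, 17.0 and 19.7 CPM in CF and at 16.3, 17.9, 19.4 and 21.5 CPM in WT (log2 ratio −0.02, SE 0.16, adjusted p = 0.960). The ranges overlapped almost fully, with CF library 0 lowest and CF library 1 highest of all 8. Ifih1, which encodes the related sensor MDA5, had a log2 ratio of −0.01 (SE 0.17), and Dhx58, which encodes the regulator LGP2, one of 0.15 (SE 0.29). For Dhx58, WT library 3 was the highest at 6.14 CPM, and without it the log2 ratio was 0.45. Without CF library 2 that of Dhx58 was −0.05.

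Among type I transcription factors, Stat2 was the steadiest member of the set. This subunit of the type I signalling complex was at 70.9, 82.2, 76.6 and 68.3 CPM in CF and at 68.4, 67.7, 74.4 and 70.6 CPM in WT, a log2 ratio of 0.08 (SE 0.09, adjusted p = 0.711, 95% interval −0.12 to 0.29). Irf7, the factor that amplifies type I interferon production, varied far more. Its values were 18.2, 56.9, 43.5 and 21.6 CPM in CF and 27.0, 22.8, 26.9 and 44.5 CPM in WT, a log2 ratio of 0.21 (SE 0.38, adjusted p = 0.833). CF libraries 1 and 2 were at or near the top and CF libraries 0 and 3 below all WT libraries, so the groups overlapped and the CF values lay on both sides of most WT values. Without CF library 1 the log2 ratio of Irf7 was −0.13, and without CF library 0 it was 0.43. A locus named for both Irf9, the DNA-binding subunit of the same complex, and its neighbour Rnf31 had a log2 ratio of 0.11 (SE 0.11, adjusted p = 0.689), and the part of Irf9 in it cannot be told apart.

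Oasl, an antiviral protein related to the oligoadenylate synthetases, had the same order of libraries as Irf7 within CF. It was at 10.8, 73.9, 53.1 and 24.1 CPM in CF and at 23.7, 23.5, 24.4 and 38.8 CPM in WT, a log2 ratio of 0.55 (SE 0.54, adjusted p = 0.676). CF library 1 was the highest and CF library 0 the lowest of all 8, a 6.87-fold span within CF against 1.65-fold within WT. Without CF library 1 the log2 ratio was 0.09 and without CF library 0 it was 0.87. Leaving out both CF libraries 0 and 3 was an alternative chosen after seeing the data. They were the lowest CF libraries for Oasl and Irf7, so the log2 ratio of both had to rise. It became 1.21 for Oasl (edgeR adjusted p = 0.0935) and 0.73 for Irf7 (edgeR adjusted p = 0.339). Oas1a, an oligoadenylate synthetase that activates RNase L, was at 2.56, 16.1, 15.9 and 5.93 CPM in CF and at 3.96, 8.18, 13.6 and 18.7 CPM in WT. Its span was wide in both groups and its log2 ratio was −0.14 (SE 0.65), or 0.19 without CF library 0, 0.05 without CF library 3 and 0.23 without WT library 3. A locus named for both Oas2 and Oas3 had a log2 ratio of 0.01 (SE 0.14, adjusted p = 0.975). The Oas genes are close copies of each other, so how fragments were split among them is uncertain.

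Mx1, a GTPase that blocks RNA viruses, had the lowest p among type I members with a higher mean in CF. It was at 6.65, 9.53, 9.42 and 4.94 CPM in CF and at 5.48, 5.92, 4.52 and 6.35 CPM in WT, a log2 ratio of 0.46 (SE 0.23, unadjusted p = 0.0695, adjusted p = 0.371). CF libraries 0, 1 and 2 lay above all WT libraries and CF library 3 within them. Mx2, its close copy, had a log2 ratio of 0.11 (SE 0.19).

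The neighbouring Ifit genes on chromosome 1 encode proteins that bind foreign RNA. Ifit2 had a log2 ratio of −0.11 (SE 0.23), with CF library 0 highest at 8.87 CPM, and −0.39 without that library. Ifit3 was at 4.77, 2.60, 1.33 and 1.40 CPM in CF and at 3.04, 1.25, 1.16 and 1.37 CPM in WT, a log2 ratio of 0.57 (SE 0.47, adjusted p = 0.593). CF library 0 was again the highest, and without it the log2 ratio was 0.06. Without WT library 0, the highest of its group, it was 1.0045.

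Ifit1 was named at 2 loci of the table. Its own locus was at 0.482, 68.2, 63.4 and 27.7 CPM in CF and at 51.6, 34.5, 0.140 and 64.4 CPM in WT (log2 ratio 0.09, SE 1.33, adjusted p = 0.985). Without CF library 0 its log2 ratio was 0.50, and without WT library 2 it was −0.33. In CF library 0 it held 10 fragments and in WT library 2 it held 3, against 555 to 1209 in the other 6. A second locus with the same span (chromosome 1, 252914542 to 252959385, Rnor_6.0), named for Ifit1 and its copy Ifit1bl, held 1378 and 1183 fragments in those libraries. That is 66.4 and 55.1 CPM, against 51.9 to 138.2 CPM in the other 6. How fragments were split between the loci was not tested. With both loci summed, the log2 ratio was −0.11 (adjusted p = 0.932).

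The remaining type I effectors had log2 ratios from −0.48 to 0.19. Ifi44, an interferon-induced protein of the cytoplasm, was at 8.39, 8.29, 8.46 and 4.79 CPM in CF and at 9.92, 9.23, 10.6 and 12.2 CPM in WT. All 4 CF values lay below all 4 WT values, and the log2 ratio was −0.48 (SE 0.19, unadjusted p = 0.0313, adjusted p = 0.285). CF library 3 was the lowest by far, and without it the log2 ratio was −0.32 (adjusted p = 0.562). Ifi44l, its neighbour and relative on chromosome 2, was at 11.3, 13.6, 13.2 and 8.03 CPM in CF and at 12.8, 12.8, 14.0 and 19.6 CPM in WT, a log2 ratio of −0.36 (SE 0.20, adjusted p = 0.427). CF library 3 was again the lowest and WT library 3 the highest, and the other 6 overlapped.

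Ifi27, a mitochondrial interferon-induced protein and the most abundant type I member at 41.9 FPKM, was at 19.6, 23.5, 30.3 and 17.8 CPM in CF and at 18.9, 22.3, 29.2 and 33.5 CPM in WT (log2 ratio −0.19, SE 0.21, adjusted p = 0.715). The groups overlapped over most of their range. Isg15, the ubiquitin-like modifier, and Usp18, the protease that removes it, had log2 ratios of 0.17 (SE 0.35) and 0.19 (SE 0.35). That of Isg15 was 0.37 without CF library 0 and −0.12 without CF library 1. Rsad2, which encodes the antiviral enzyme viperin, had one of 0.02 (SE 0.56) with a 10.4-fold span within CF. It was 0.37 without CF library 0 and −0.58 without CF library 1. Parp14, an ADP-ribosyltransferase, had a log2 ratio of −0.13 (SE 0.26), or 0.017 without CF library 3.

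**Figure D3:**
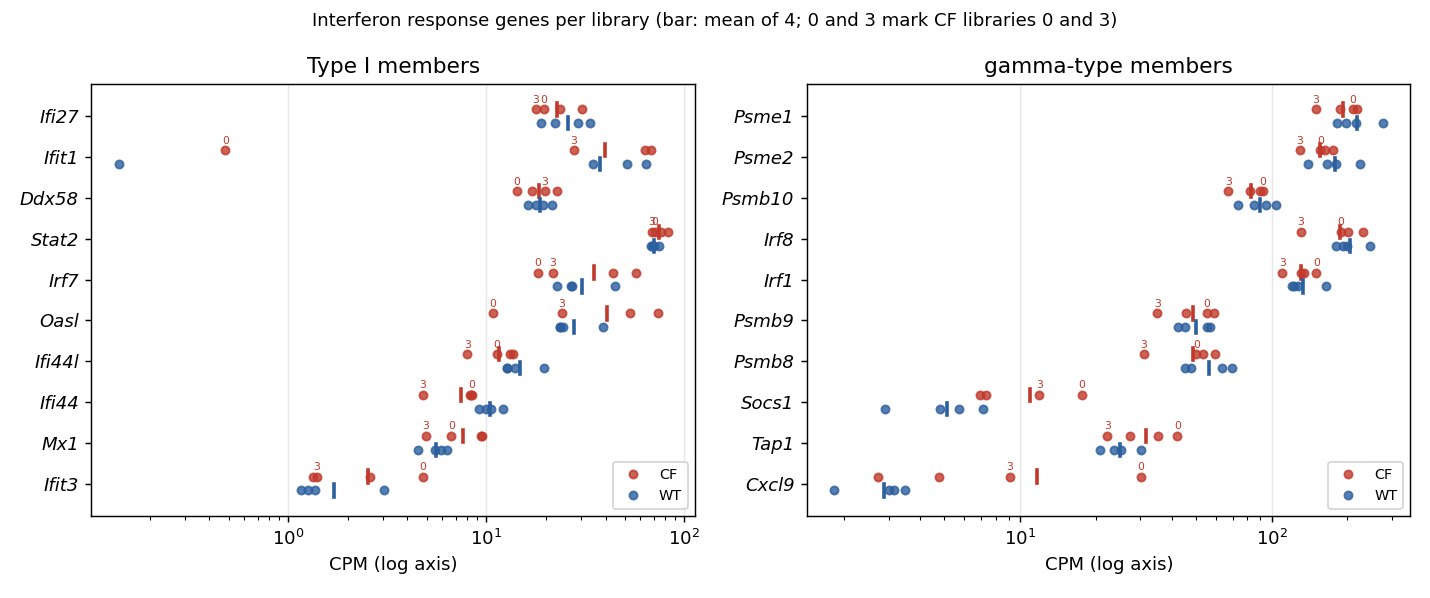
Level in each library (points, CPM on a log axis) and group mean (vertical bars) of the 10 type I and 10 gamma-type members chosen by abundance, log2 ratio or p. Genes are ordered by FPKM from the top, with CF in red and WT in blue and CF libraries 0 and 3 numbered. Ifi44 is the gene whose groups do not overlap, with CF at 4.79 to 8.46 CPM and WT at 9.23 to 12.2 CPM, and CF library 0 is the point at 30.1 CPM for Cxcl9.

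Gamma-type members held the largest difference of the set and also some of the most level genes. Irf1, the main transcription factor raised by interferon gamma, was at 150.5, 130.4, 134 and 110.2 CPM in CF and at 119.9, 123, 127 and 164 CPM in WT, a log2 ratio of −0.02 (SE 0.13, adjusted p = 0.950). The highest and the lowest CF value enclosed 3 of the 4 WT values. Irf8, a factor of macrophages, dendritic cells and B cells, was at 188.5, 229.8, 200.8 and 130.5 CPM in CF and at 179.6, 192, 199.996 and 245 CPM in WT, a log2 ratio of −0.12 (SE 0.17, adjusted p = 0.773). For both genes CF library 3 was the lowest and WT library 3 the highest of all 8.

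Cxcl9, a chemokine that draws activated T cells, had the largest log2 ratio of the members, 2.02 (SE 0.73, unadjusted p = 0.0239, adjusted p = 0.261). It was at 30.1, 4.74, 2.71 and 9.08 CPM in CF and at 1.83, 3.01, 3.49 and 3.14 CPM in WT. CF libraries 0, 1 and 3 exceeded every WT library, and CF library 2 lay among the WT values. CF library 0 decided the size: without it the log2 ratio was 0.94 (edgeR adjusted p = 0.275), and without CF libraries 0 and 3 it was 0.37. These libraries held the highest values and were picked after seeing the data, so the ratio had to fall.

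Socs1, the feedback inhibitor of Jak kinases that interferons raise, had the lowest p of the members. Its values were 17.6, 6.94, 7.34 and 11.9 CPM in CF and 5.72, 2.91, 4.80 and 7.10 CPM in WT, a log2 ratio of 1.10 (SE 0.35, unadjusted p = 0.0103, adjusted p = 0.202). CF libraries 0 and 3 lay above every WT library, CF library 2 just above the highest WT library and CF library 1 just below it. The log2 ratio was 0.78 without CF library 0 (edgeR adjusted p = 0.248) and 0.49 without CF libraries 0 and 3. As these libraries held the highest values and were picked after seeing the data, that fall had to follow. Over the 17 alternative analyses the adjusted p of Socs1 ran from 0.0439, by DESeq2, to 0.795.

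The guanylate-binding proteins, GTPases that attack pathogens inside cells, were set apart mainly by CF library 0. Gbp2 was at 52.6, 24.6, 28.0 and 15.3 CPM in CF and at 27.0, 37.1, 33.7 and 34.8 CPM in WT, a log2 ratio of −0.14 (SE 0.32). Gbp5 was at 21.6, 8.58, 9.36 and 7.58 CPM in CF and at 9.25, 12.3, 11.5 and 11.5 CPM in WT, a log2 ratio of 0.08 (SE 0.31). In both genes CF library 0 was the highest and CF library 3 the lowest of all 8. Without CF library 0 the log2 ratio was −0.55 for Gbp2 (edgeR adjusted p = 0.220) and −0.39 for Gbp5 (edgeR adjusted p = 0.256), a change of sign for Gbp5. Without CF library 3 the log2 ratio of Gbp2 was 0.08, which is also a change of sign. The Gbp2 locus spans chromosome 2 from 248215406 to 248387606 (Rnor_6.0), and the locus of Gbp4 has the same span. How fragments were split between them is uncertain.

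The immunoproteasome, the form of the proteasome that cuts peptides for display on MHC class I, had slightly lower means in CF for all 5 of its listed members, and none passed the test. The log2 ratios were −0.22 (SE 0.21) for Psmb8, −0.03 (SE 0.17) for Psmb9 and −0.11 (SE 0.14) for Psmb10, the 3 inducible catalytic subunits. Those of Psme1 and Psme2, the 2 subunits of the activator cap, were both −0.19, with SE 0.16 and 0.15. Psme1, the most abundant member at 186 FPKM, was at 210.4, 219, 187 and 149.7 CPM in CF and at 182, 197, 217 and 277 CPM in WT. For all 5, CF library 3 was the lowest and, except for Psmb9, WT library 3 the highest of all 8. The sign of the Psmb9 value changed without CF library 3 (0.10), WT library 2 (0.01) or WT library 3 (0.03).

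Tap1, which carries those peptides into the endoplasmic reticulum, shares the stretch between their starts with Psmb9 and had a higher mean in CF. It was at 42.1, 35.1, 27.4 and 22.2 CPM in CF and at 25.1, 20.8, 23.7 and 30.2 CPM in WT, a log2 ratio of 0.35 (SE 0.19, unadjusted p = 0.102, adjusted p = 0.428). CF libraries 0 and 1 lay above every WT library and CF libraries 2 and 3 within their range. Without CF library 0 the log2 ratio was 0.18. Tap2, its partner in the transporter, had at most 2 fragments in any library.

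A few libraries stood at an end of the range for many members. CF library 3 was the lowest of the 8 in 15 of the 31 members and WT library 3 the highest in 14, against 14.2% and 11.9% of all tested loci. In the gamma-type class alone, CF library 3 was the lowest in 9 of 12 members and WT library 3 the highest in 6. In the type I class, CF libraries 0 and 3 were each the lowest in 6 of 19 members, and CF library 1 and WT library 3 each the highest in 8, while 17.8% of all tested loci were lowest in CF library 0 and 13.6% highest in CF library 1. The SD of log2 CPM was wider in CF than in WT for 13 of 19 type I members (68.4%) and 8 of 12 gamma-type members (66.7%), beside 57.2% of all tested loci.

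**Figure D4:**
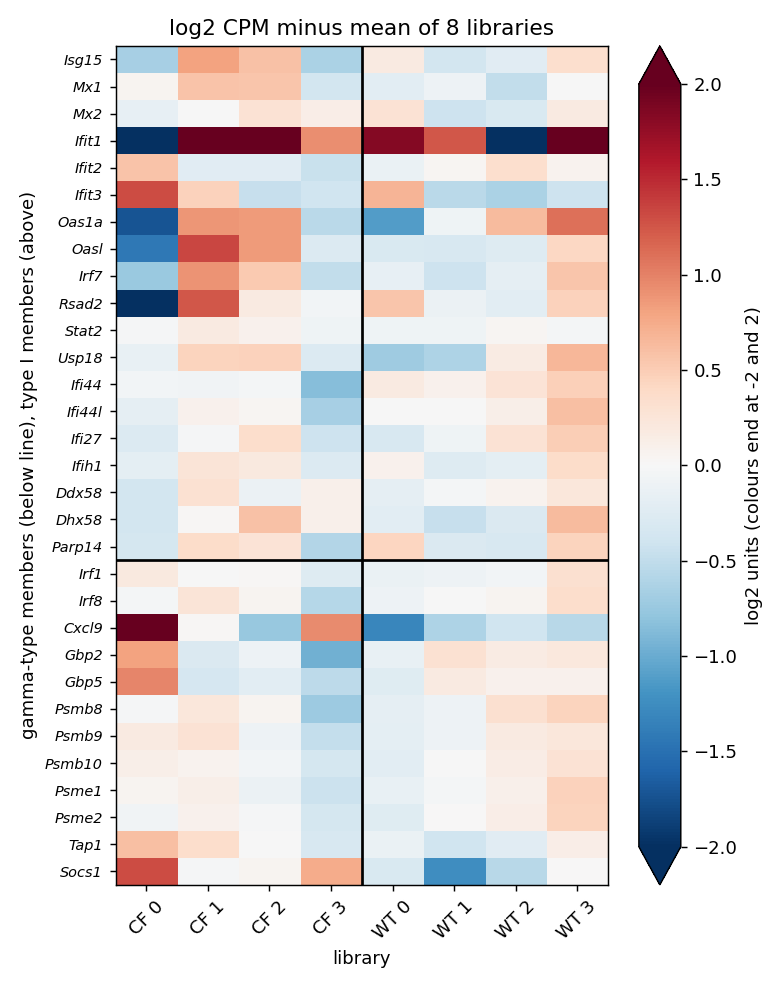
Log2 CPM of each tested member in each library, minus its mean over the 8 libraries, red above and blue below that mean, with type I members above the horizontal line and the 4 CF libraries left of the vertical line. Colours end at −2 and 2. CF library 0 is low for Oasl, Oas1a, Rsad2 and Irf7 and high for Cxcl9, Socs1, Gbp2, Gbp5 and Tap1, while CF library 3 is the lowest of all 8 in 15 of the 31 members.

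In CF library 0, 16 of 19 type I members lay below their own 8-library mean and 9 of 12 gamma-type members above it. The mean deviation of the type I members in log2 CPM was −0.60, 0.51, 0.37 and −0.27 in CF and 0.04, −0.15, −0.37 and 0.46 in WT. For the gamma-type members it was 0.56, 0.06, −0.10 and −0.27 in CF and −0.28, −0.18, −0.003 and 0.20 in WT. By these means CF library 0 was the lowest of the 8 for type I members and the highest for gamma-type members, but single members carried much of both values. Ifit1 had few fragments at its own locus in CF library 0. Without Ifit1 the type I means were −0.38, 0.42, 0.28 and −0.33 in CF and −0.058, −0.23, −0.065 and 0.36 in WT. CF libraries 0 and 3 were then nearly level. Among gamma-type members, Cxcl9, Socs1, Gbp2, Gbp5 and Tap1 were highest in CF library 0, and the other 7 lay between −0.077 and 0.20 there. By the median over members, CF library 3 was the lowest for type I members (−0.36, with CF library 0 at −0.28), and WT library 3 the highest for gamma-type members (0.26, with CF library 0 at 0.19). CF library 3 was below 0 in both classes and WT library 3 above 0 in both.

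Markers of other cell types also varied between libraries, and the libraries at the ends of the range differed between the lists. The 17 enterocyte markers had a mean deviation of −0.89, 0.48, 0.09 and 0.09 in CF and 0.15, −0.07, −0.24 and 0.39 in WT, with CF library 0 lowest and CF library 1 and WT library 3 highest, as for the type I means. None of the 17 was at 0, and their summed CPM lay between 12627 and 36681 in CF and between 20296 and 34732 in WT. Of 10 neutrophil markers, 2 passed the filter on low counts. Their log2 ratios were 2.52 and 4.06, above that of every member. Both had an unadjusted p under 0.05 in edgeR, beside 7.94% of all tested loci higher in CF. For both, all CF values lay above all WT values, beside 4.86% of loci, and neither passed the adjusted threshold (lowest edgeR adjusted p = 0.101). The summed level of all 10 was 40.5, 4.74, 4.15 and 14.0 CPM in CF and 3.16, 1.66, 1.82 and 1.37 CPM in WT. CF libraries 0 and 3 were the highest for these, as for Cxcl9 and Socs1, and the granule genes Mpo and Elane stayed at or below 0.183 CPM everywhere. Of 20 T and NK cell markers, 18 were tested. The summed CPM of all 20 lay between 143 and 174 in CF and between 103.6 (library 0) and 199.4 (library 3) in WT. Of 18 macrophage and dendritic cell markers, 17 were tested. The summed CPM of all 18 lay between 1082 and 1140 in CF and between 1035 (library 0) and 1821 (library 2) in WT. That sum is mostly Lyz2, with 132906 fragments over all libraries, while the next marker, C1qc, had 12949. Among the 17, 12 had a lower and 5 a higher mean in CF, with a median log2 ratio of −0.18, and none passed the adjusted threshold. At edgeR's unadjusted p under 0.05, 4 were lower, beside 7.21% of all tested loci. Of 10 tested vessel markers, 9 had a lower and 1 a higher mean in CF, with a median log2 ratio of −0.37. At that cut 5 of them were lower, and none passed the adjusted threshold. Of 8 tested epithelium markers, 7 had a higher mean in CF, and 3 were higher at that cut, beside 7.94% of loci. The 7 tested smooth muscle markers had a mean deviation of −0.01, 0.12, 0.20 and 0.36 in CF. In WT it was −0.05, −0.01, −0.04 and −0.56. There CF library 3 was the highest and WT library 3 the lowest, the opposite ends from those described for the members. The part of these cells in the members' values was not tested.

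**Figure D5:**
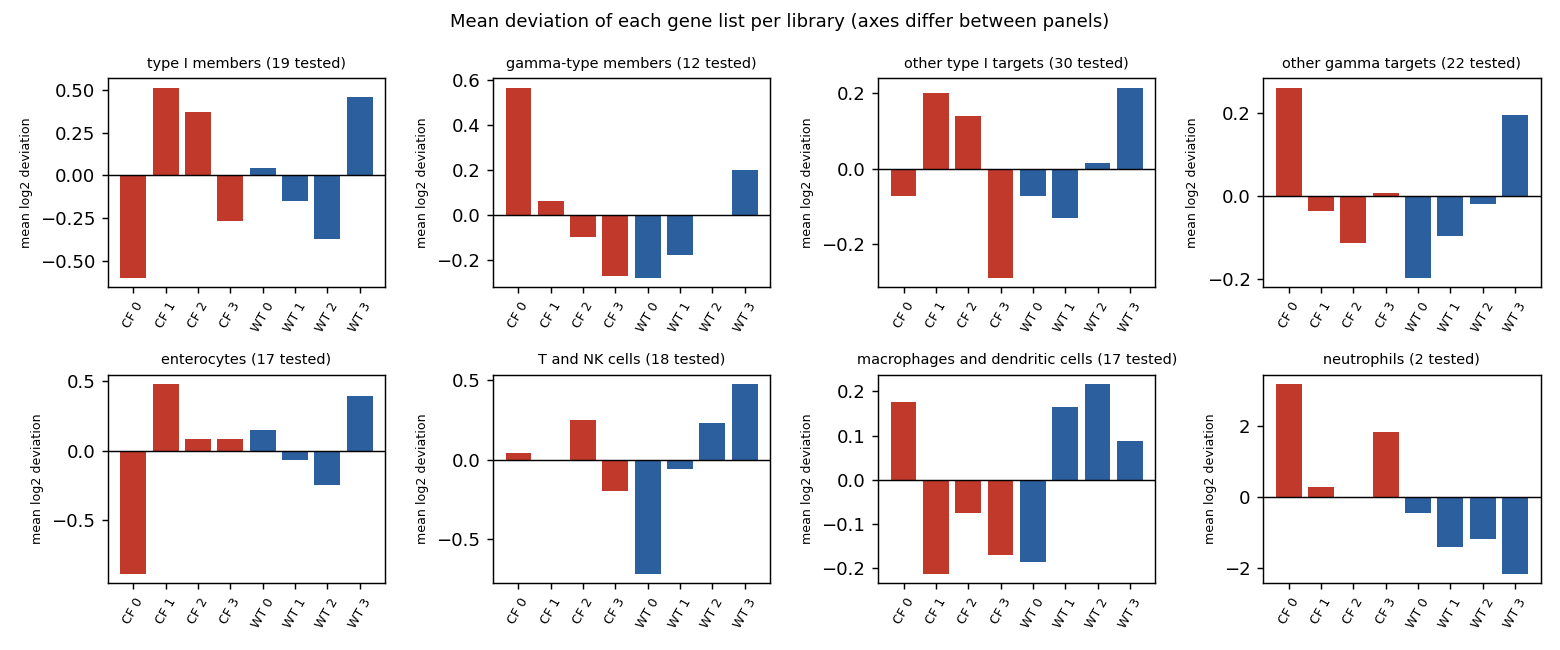
Mean deviation from the 8-library mean (log2 CPM) of each gene list in each library, CF in red and WT in blue, with the number of tested genes in each panel title and a different vertical axis in each panel. CF library 0 is lowest for type I members (−0.60, or −0.38 without Ifit1) and enterocytes (−0.89), and highest for neutrophils and for gamma-type members (0.56). By the median over members, CF library 3 is the lowest for type I members (−0.36, with CF library 0 at −0.28). By that measure WT library 3 is the highest for gamma-type members (0.26, with CF library 0 at 0.19).

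The interferons themselves were nearly absent from the reads. Of 16 listed interferons and interferon-inducing cytokines, 14 were found and 3 tested. Ifnb1, Ifna2, Ifna4, Ifna5, Ifna11 and Ifnl3 had 0 fragments in all 8 libraries, and a count of 0 allows up to 3 fragments, which is 0.144 to 0.197 CPM depending on the library. Ifne had 1 fragment in all and Ifnk had 6, all of the latter in CF libraries. Ifng, which encodes interferon gamma, had 27, 0, 0 and 4 fragments in CF and 0 in each WT library. The 2 libraries with Ifng fragments were CF libraries 0 and 3, which also held the highest Cxcl9 and Socs1 values, and the relation was not tested. Intervals and limits of this kind cover counting error only.

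Of the 3 tested cytokines of this list, which induce interferon gamma, Il18 and Il12a had a higher mean in CF and Il15 a lower one, and none passed the test. Il18 was at 57.9, 45.6, 34.6 and 72.6 CPM in CF and at 20.5, 36.6, 38.0 and 35.2 CPM in WT, a log2 ratio of 0.69 (SE 0.25, unadjusted p = 0.0218, adjusted p = 0.255). CF libraries 0, 1 and 3 lay above all WT libraries. Il12a, a subunit of interleukin 12, had a log2 ratio of 0.57 (SE 0.28, adjusted p = 0.363), and Il15 one of −0.08 (SE 0.24, adjusted p = 0.900).

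Receptors and kinases of the pathway were present throughout. Of 13 tested members of this list, 8 had a higher and 5 a lower mean in CF, with a median log2 ratio of 0.05, and none had an unadjusted p under 0.05. Ifngr1, the ligand-binding chain of the gamma receptor, was at 204.3, 278, 195 and 252 CPM in CF and at 179.5, 191, 203 and 203.6 CPM in WT (log2 ratio 0.26, SE 0.13, adjusted p = 0.381). CF libraries 1 and 3 lay clearly above every WT library, CF library 0 just above the highest and CF library 2 among them. Socs3, a feedback inhibitor raised mainly by interleukin 6 type cytokines, was at 78.7, 17.7, 17.0 and 42.9 CPM in CF and at 10.2, 17.0, 29.7 and 23.6 CPM in WT (log2 ratio 0.96, SE 0.56, adjusted p = 0.463). As for Socs1, CF libraries 0 and 3 were the highest. The log2 ratio was 0.36 without CF library 0 and −0.22 without both, a fall that had to follow from leaving out the highest values.

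In the nucleic acid sensing list, 5 of 17 tested genes had a higher and 12 a lower mean in CF, with a median log2 ratio of −0.07. Tlr3, the endosomal sensor of double-stranded RNA, was at 30.2, 44.1, 39.7 and 27.1 CPM in CF and at 37.1, 47.2, 50.2 and 56.0 CPM in WT (log2 ratio −0.43, SE 0.17, unadjusted p = 0.0311, adjusted p = 0.285). CF libraries 0 and 3 lay below every WT library. Tmem173, which encodes the DNA-sensing adaptor STING, had a log2 ratio of 0.44 (SE 0.19, unadjusted p = 0.0451, adjusted p = 0.320).

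Other type I targets outside the set gave 13 higher and 17 lower means among 30 tested genes, with a median log2 ratio of −0.10 and no gene past the adjusted threshold. Slfn3, a Schlafen family gene, came nearest. It was at 79.0, 39.7, 77.9 and 40.2 CPM in CF and at 13.2, 20.8, 20.4 and 24.2 CPM in WT, a log2 ratio of 1.59 (SE 0.28, adjusted p = 0.0682). All 4 CF values lay above all 4 WT values, as for 4.86% of all tested loci. In the same list 1 gene lay wholly below WT, as did 3.91% of loci. Without CF libraries 0 and 3 the log2 ratio of Slfn3 was 1.58. DESeq2 gave it an adjusted p of 6.09e-06 and limma on log2(FPKM + 1) one of 0.0433. Its neighbour Slfn2 had a log2 ratio of 0.41 (SE 0.14, adjusted p = 0.231), and Schlafen genes are close copies, so the split of fragments between them is uncertain.

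Other gamma targets gave 12 higher and 10 lower means among 22 tested genes, with a median log2 ratio of 0.14 and again no gene past the adjusted threshold. This list also holds the constitutive proteasome subunits that the inducible ones replace. Wars, a tryptophan-tRNA synthetase raised by interferon gamma, had a log2 ratio of 0.36 (SE 0.14, unadjusted p = 0.0259, adjusted p = 0.268), with CF library 0 highest at 125 CPM and a log2 ratio of 0.22 without it. Erap1, which trims peptides for MHC class I, had one of −0.24 (SE 0.11, adjusted p = 0.330).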

How the data were processed

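The members and all gene lists were chosen with earlier results of these data known. Estimated counts are raw fragments from the Cuffdiff gene table that the authors deposited; 5.99% of the values were fractional and all were rounded. The FPKM values were made by the authors with Cuffdiff, per the file headers, with its scaling for depth and transcript length, and served for levels between genes and for limma. STAR 2.3.1z, StringTie and build Rnor_6.0 are named in the submitters' processing notes, and their settings were not given there. The table's library numbers are not tied to the sample titles, so only the group of each library was used. Among the columns with values per library, 2 went unused.

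Loci were filtered with filterByExpr (minimum count 10, minimum total 15), scaled by TMM and compared, CF over WT, with edgeR 4.0.16 by its robust quasi-likelihood test in R 4.3.3, at a Benjamini-Hochberg adjusted p of 0.05. Alternatives used DESeq2 1.42.0, limma 3.58.1 on log2(FPKM + 1) or log2(FPKM + 0.1), other filters, a replicate block and libraries left out. The scripts were tested on simulated data. Deviations used log2 CPM with a prior count of 2. Members chosen by rank, 10 per class, were the 6 most abundant, the 3 highest and 3 lowest log2 fold changes and the 3 lowest p-values of each class. Of these, Psmb8, Psmb9, Psmb10 and Psme2 are given per library in figures only. From each other interferon list the genes with the 2 lowest p-values were chosen. Other members were named by role after their values were seen, and Oas1a, Gbp2 and Gbp5 among them are given per library. Motifs were searched in 250 bases before the start, from RefSeq promoters in GRCr8, a build used for no expression value. Depth, 15255364 to 20890031 fragments, and 4 libraries per group set the precision.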

Additional observations from a re-analysis of the deposited data

Results flagged for a closer look

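In 41 interferon genes, each group of 4 libraries was checked for 1 value far from the other 3, by Dixon's criterion at the 95% level. Of 82 such sets 9 passed. The nominal rate of 1 in 20 holds for independent sets of normally distributed values. These genes share the same libraries, so the 9 cannot be judged against that rate. Among the CF libraries, Ifit2 stood at 8.87 CPM in library 0 with the next at 5.08, Gbp5 stood at 21.6 CPM in library 0 with the next at 9.36, and Ifi44 stood low at 4.79 CPM in library 3 with the next at 8.29. In WT library 3, Oasl was high at 38.8 CPM, Dhx58 at 6.14 CPM and Irf1 at 164 CPM, with the next values at 24.4, 3.35 and 127 CPM, while Il12a was low there at 1.57 CPM with the next at 2.68. In WT library 0, Ifit3 was high at 3.04 CPM with the next at 1.37, and Il18 was low at 20.5 CPM with the next at 35.2.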

How the results depend on the processing

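Loci past the adjusted threshold numbered 28, and 553 without the low-count filter, 621 by DESeq2, 15 by limma at a mean FPKM of at least 1, and 47 without CF libraries 0 and 3 (an alternative chosen after seeing the data). Leaving out 1 library gave 5 to 136: 136 if CF library 0 was left out, 77 for CF library 2, 5 for WT library 1 or 2, and 6 for WT library 3. Members past the threshold were 1 by DESeq2 and 0 in all other analyses. Members at an unadjusted p under 0.05 were 3, and 5 without the filter, 0 by limma on log2(FPKM + 1) with or without the FPKM minimum, 1 with a pseudocount of 0.1, 5 without CF libraries 0 and 3, and 1 to 5 with 1 library left out (5 without CF library 0, 1 without WT library 3). The share of all tested loci at an unadjusted p under 0.05 was computed for the main analysis only, where it was 15.1%. The other member counts at that cut therefore have no background beside them. The causes of these shifts were not tested.

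With the library number as replicate block, 11 loci, 0 members and 1 member at an unadjusted p passed, the type I median was −0.0035 and Ifit1 was −0.064. Deviations of same-numbered libraries correlated at 0.07, −0.11, 0.16 and −0.01, and 4 of 8 libraries correlated best with their own number. No label says whether same-numbered libraries belong together, and this check does not decide it. The type I median ran from −0.12 to 0.19 and the gamma-type median from −0.15 to 0.07 with 1 library left out.

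Signs of small log2 fold changes turned. Without the filter Ddx58 was 0.014, Irf1 0.0099 and Psmb9 0.0013. Without CF libraries 0 and 3, Ifi27 was 0.053, Ddx58 0.087, Irf8 0.078, Psmb8 0.00049, Psmb9 0.070 and Socs3 −0.22. Ifit1 with its overlapping locus was −0.11. With 1 library left out, Ifit1 ran from −0.33 to 0.50, Irf7 from −0.13 to 0.45, Ddx58 from −0.14 to 0.083, Irf1 from −0.095 to 0.091, Irf8 from −0.24 to 0.018 and Psmb9 from −0.14 to 0.097. Each member had 1 locus, so summing loci of a symbol gave no other value.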
